A study of Rattus norvegicus with 8 samples.

Results

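The genes described here are 8 genes of cholesterol synthesis and its control, Mvk, Mvd, Hmgcs1, Sqle, Fdps, Fdft1, Srebf2 and Insig1, out of the 17446 genes counted in rat whole blood. They were taken by gene symbol. Mvk was chosen by its measured values, as a gene with a lower level after CMG in the DOCA-HS model, and the values by which the other 7 were selected are not recorded, so every change after CMG below is a description without a test. The set holds 6 enzymes and 2 regulators.

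Blood came from wild-type male Wistar rats, 12 to 14 weeks of age, in 2 models of hypertension, with 2 libraries before and 2 after oral Chios mastic gum (CMG), the resin of Pistacia lentiscus, at 220 mg/kg for 4 weeks. In the AngII model, angiotensin II was infused at 0.4 mg/kg/day from a subcutaneous osmotic minipump rated for 4 weeks, and the libraries before and after CMG stand at week 1 and week 5. In the DOCA-HS model, deoxycorticosterone acetate was given at 100 mg/kg with 0.9% NaCl and 1% KCl in the drinking water, and the libraries stand at week 3 and week 7. The groups are therefore AngII alone, AngII with CMG, DOCA and salt alone, and DOCA and salt with CMG. No library of hypertensive rats without CMG at the later week was analysed here, so CMG, the further weeks of the model and the handling of the blood cannot be told apart. Nothing in the labels says whether the 2 libraries of a group came from separate rats, so the errors measure only the spread between these libraries, which may be technical.

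Cholesterol is built from acetyl-CoA through mevalonate. Hmgcs1 makes HMG-CoA, from which mevalonate is formed, Mvk phosphorylates mevalonate and Mvd decarboxylates the diphosphate to an isoprenoid unit. Fdps joins these units to farnesyl diphosphate, Fdft1 condenses it to squalene, and Sqle adds the oxygen that allows ring closure. Srebf2 encodes SREBP-2, the transcription factor that raises these genes when sterol is low, and Insig1 holds its precursor in the endoplasmic reticulum when sterol is high. SREBP-2 binds sterol regulatory elements in promoters, often beside CCAAT and GC boxes, which are bound by NF-Y and Sp1. Much of the body's synthesis takes place in the liver, whereas mature red cells carry out none.

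Promoter windows were read from RefSeq (GRCr8), from 250 bases before to 50 bases after each start, and 6 of the 8 genes had an entry, all but Sqle and Fdft1. On either strand, the sterol regulatory element letters TCACNCCAC were found in 0 of 6 windows and in 1.117% of the 33469 windows of the table. With 1 mismatch allowed they were found in 3 of 6, those of Fdps, Srebf2 and Insig1, and in 23.67% of all windows. The CCAAT box, searched as CCAAT, was found in 6 of 6 against 37.49% of all. The GC box, searched as GGGCGG, was found in 6 of 6 against 33.06%. A match is a description of the letters and not evidence of a bound site, and no binding was measured here. The windows of Mvk and of the 3 genes with a near match are shown because Mvk had the largest fold change of the set after CMG in DOCA-HS and the others hold a near match of the sterol element, as do 23.67% of all windows. Capitals mark the CCAAT box, the GC box and near matches of the sterol element, each on either strand, and none of the marked matches overlap in these windows.

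Mvk (minus strand): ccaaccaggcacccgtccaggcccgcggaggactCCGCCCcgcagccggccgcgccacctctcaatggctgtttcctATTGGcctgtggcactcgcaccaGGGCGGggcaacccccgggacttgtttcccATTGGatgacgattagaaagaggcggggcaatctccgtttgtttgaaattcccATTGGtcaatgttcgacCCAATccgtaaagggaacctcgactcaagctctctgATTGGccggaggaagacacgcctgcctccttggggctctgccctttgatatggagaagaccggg

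Fdps (minus strand): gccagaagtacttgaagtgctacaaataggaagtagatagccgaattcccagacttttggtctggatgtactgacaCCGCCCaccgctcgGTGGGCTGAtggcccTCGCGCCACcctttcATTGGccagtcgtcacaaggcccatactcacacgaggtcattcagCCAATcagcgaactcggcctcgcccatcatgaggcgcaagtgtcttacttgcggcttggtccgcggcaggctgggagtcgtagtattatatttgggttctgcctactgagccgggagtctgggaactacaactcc

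Srebf2 (plus strand): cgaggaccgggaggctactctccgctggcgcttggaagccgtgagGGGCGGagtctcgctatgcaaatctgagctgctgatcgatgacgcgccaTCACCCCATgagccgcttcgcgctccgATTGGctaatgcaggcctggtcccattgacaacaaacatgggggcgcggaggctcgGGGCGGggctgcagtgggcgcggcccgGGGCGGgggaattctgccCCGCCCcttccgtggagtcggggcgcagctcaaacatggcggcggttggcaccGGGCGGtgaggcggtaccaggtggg

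Insig1 (minus strand): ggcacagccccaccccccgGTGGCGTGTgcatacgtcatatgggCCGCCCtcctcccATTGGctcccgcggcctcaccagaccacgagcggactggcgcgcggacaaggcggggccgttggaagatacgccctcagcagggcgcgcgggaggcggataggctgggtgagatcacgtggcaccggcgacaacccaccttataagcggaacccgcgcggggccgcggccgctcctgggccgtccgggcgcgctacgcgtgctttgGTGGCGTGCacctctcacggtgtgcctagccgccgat

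The Mvk window held 5 CCAAT boxes and 2 GC boxes. In the Srebf2 window the near match read TCACCCCAT and began at position -156 from the start. In the GRCr8 gene table Mvk lies head to head with Mmab, a gene of cobalamin metabolism on the opposite strand, with 253 bases between them. Mmab was not analysed here.

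The 8 libraries held 4149104 to 13205565 counts, of which the 2 hemoglobin entries took 61.9% to 84.3%. Outside hemoglobin, 651764 to 4490083 counts remained, and the lowest was that of DOCA-HS after CMG replicate 2, which stands apart. It had 2686 genes with at least 10 counts, against 6097 to 8280 in the other libraries, and 1 count there was worth 0.703 CPM, the count scaled to the size of its library. The 8 genes together had 49 counts in it, against 224 to 872 in the others, so the fold changes of the tested genes in DOCA-HS are also given without it. Levels are CPM scaled by the trimmed mean of M values (TMM), without correction for transcript length, so they are compared between libraries and not between genes. Intervals are exact 95% Poisson intervals and cover counting error only. Of the 3567 counts on the 8 genes, Srebf2 held 39.0% and Fdps 31.4%, whereas Sqle held 1.37%, which sets how firmly each gene can be described. Among the marker lists, the erythroid genes summed to 10542 to 36289 CPM, as whole blood should show, and markers of T cells, B cells, NK cells, monocytes, neutrophils and platelets were found in every library.

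**Figure D1:**
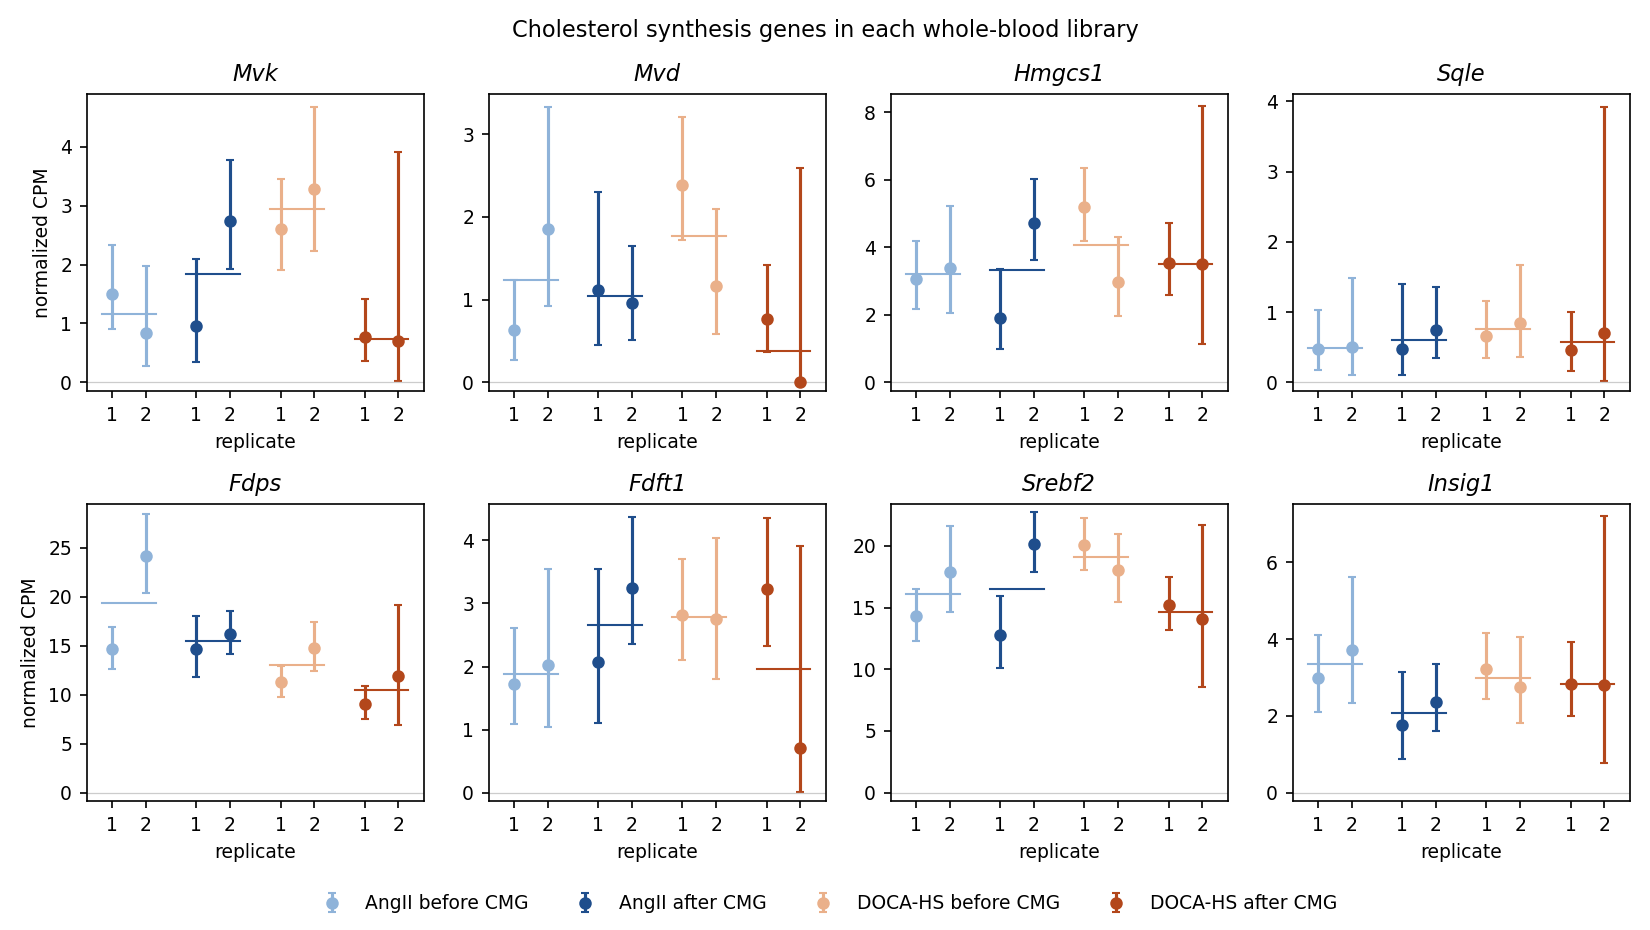
Level of each of the 8 genes (y axis, normalized CPM, with its own scale for each gene) in each library (x axis, replicate within the 4 groups); points are single libraries, bars the exact 95% Poisson interval of the count and horizontal lines the mean of the 2 libraries. Both DOCA-HS libraries after CMG lie below both before CMG for Mvk, Mvd and Srebf2 on this scale (Srebf2 overlaps with total counts), and the bars of DOCA-HS after CMG replicate 2 are the widest in each panel.

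Mvk, the kinase that commits mevalonate to the pathway, was lower after CMG in both DOCA-HS libraries. Its level in DOCA-HS was 2.60 CPM (47 counts) and 3.29 CPM (31 counts) before CMG and 0.768 CPM (10 counts) and 0.703 CPM (1 count) after it. Both after libraries lay below both before libraries. At the mean level before CMG, 38.4 and 4.19 counts would have been seen in the after libraries, where 10 and 1 were. The interval of the single count in replicate 2 ran from 0.0178 to 3.92 CPM and held both values before CMG. That of replicate 1, 0.368 to 1.41 CPM, lay below both of them. In AngII the level of Mvk was 1.49 and 0.844 CPM before CMG and 0.959 and 2.73 CPM after it. Those groups overlapped, with replicate 2 after CMG the highest of the 4.

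The log2 fold change of Mvk was -1.93 (SE 0.60) in DOCA-HS and 0.69 (SE 0.60) in AngII, from edgeR fits of the 4 libraries of each model. The change in DOCA-HS minus that in AngII was -2.61 (SE 0.86) on the log2 scale in a fit of all 8 libraries. Without DOCA-HS after CMG replicate 2 the fold change in DOCA-HS was -1.89, and without replicate 1 it was -2.03. In AngII it was -0.34 without replicate 2 after CMG, so that library decided its direction. Mvk was the 1 gene of the set that met the study's criterion in DOCA-HS, a log2 fold change beyond 1.5 with an unadjusted p of at most 0.05, which in the downward direction 0.259% of the 7720 genes tested met and in the upward direction 1.79%. With DESeq2 or total counts, or without either DOCA-HS library before CMG or replicate 1 after it, 0 genes of the set met it. Since Mvk was chosen by this contrast, nothing is read from that count. Mvk at -1.93 was the gene nearest to the fold limit on its inner side and Mvd at -1.48 on its outer side, and Mvd did not meet the p limit either. In AngII 0 of 7 genes met the criterion, against 0.333% of the 7201 genes tested downward and 0.903% upward.

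**Figure D2:**
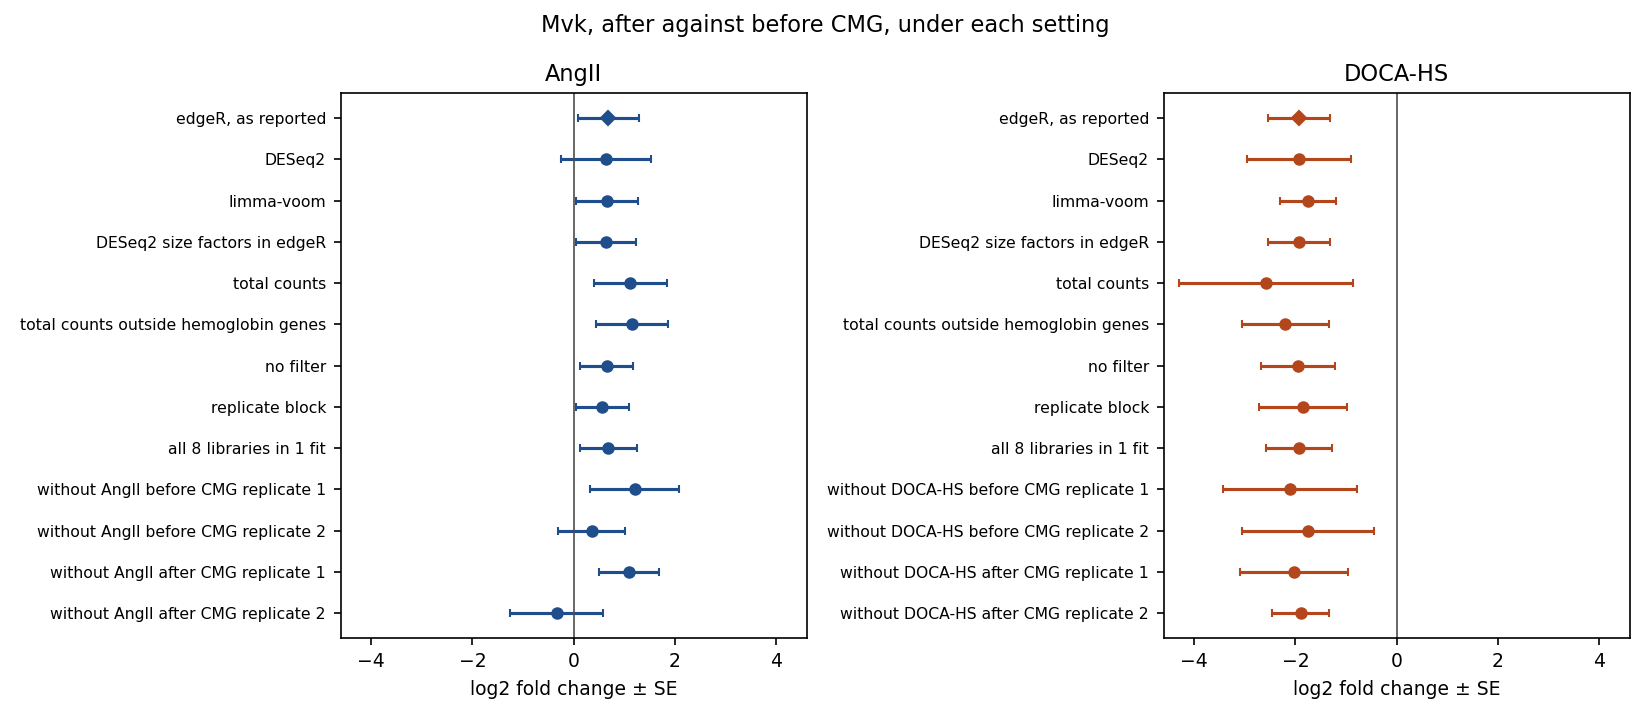
Log2 fold change of Mvk after against before CMG (x axis, with bars of 1 SE) in AngII and in DOCA-HS under each way of processing (y axis); the diamond is the value given in the text. In DOCA-HS every point lies below 0, from -2.58 to -1.75, and in AngII 1 point, without replicate 2 after CMG, lies below 0 at -0.34.

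The share of Mvk among the 8 genes needs no scaling between libraries, but it repeats the counts by which Mvk was chosen and is given as a description. Mvk held 5.39% and 7.06% of the counts on the 8 genes in the DOCA-HS libraries before CMG and 2.14% and 2.04% after it. The exact binomial 95% intervals were 3.99 to 7.10% and 4.85 to 9.87% before CMG, and 1.03 to 3.90% and 0.0517 to 10.9% after it, for counting error only. In AngII the share was 3.79% and 1.55% before CMG and 2.68% and 5.34% after it, and the groups overlapped.

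Mvd, the decarboxylase that follows Mvk after the Pmvk step, had the lowest counts of the tested genes. In DOCA-HS its level was 2.38 CPM (43 counts) and 1.17 CPM (11 counts) before CMG, and 0.768 CPM (10 counts) and 0 counts after it. The interval of the 0 counts in replicate 2 reached 2.59 CPM, above both values before CMG, and 2.52 counts would have been seen at the mean level before CMG. Its log2 fold change was -1.48 (SE 0.79) in DOCA-HS. Leaving out single libraries brought it as near to 0 as -0.94, and it was -1.25 without replicate 2 after CMG. Without replicate 1 the group held 0 counts, and the fitted value, -7.17, is no measure of size. In AngII its levels were 0.628 and 1.86 CPM before CMG and 1.12 and 0.961 CPM after it, which overlapped, with a log2 fold change of -0.12 (SE 0.69), which was 0.26 with total counts and ran from -0.83 to 0.66 without single libraries.

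Hmgcs1, the synthase that makes HMG-CoA, overlapped between before and after CMG in both models. Its levels in DOCA-HS were 5.20 and 2.97 CPM before CMG and 3.53 and 3.51 CPM after it, the last from 5 counts. In AngII they were 3.06 and 3.38 CPM before CMG and 1.92 and 4.73 CPM after it. The log2 fold change was -0.23 (SE 0.50) in DOCA-HS and 0.14 (SE 0.44) in AngII, each smaller than its error. In DOCA-HS it was 0.25 without replicate 1 before CMG, and in AngII -0.72 without replicate 2 after CMG, so 1 library turned the direction in each model.

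Fdps, the farnesyl diphosphate synthase at the branch to cholesterol, isoprenoids and prenylated proteins, had 17 to 220 counts a library. In DOCA-HS its levels were 11.3 and 14.8 CPM before CMG and 9.06 and 11.95 CPM after it, with a log2 fold change of -0.34 (SE 0.45). In AngII they were 14.7 and 24.1 CPM before CMG and 14.7 and 16.3 CPM after it, with a log2 fold change of -0.29 (SE 0.33), which was 0.05 without replicate 2 before CMG and 0.12 with total counts. The 2 groups overlapped in both models. In DOCA-HS the value was -0.10 without replicate 2 before CMG and -0.12 without replicate 1 after it.

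Fdft1, squalene synthase, was higher after CMG in both AngII libraries, at 2.08 and 3.25 CPM against 1.73 and 2.03 CPM before it. The gap between the nearest libraries was within their counting intervals, and the log2 fold change was 0.58 (SE 0.40), which was 0.18 without replicate 2 after CMG. In DOCA-HS its levels were 2.82 and 2.76 CPM before CMG and 3.23 and 0.703 CPM after it, the last from 1 count, with a log2 fold change of -0.10 (SE 0.55). Those groups overlapped, and the value was 0.22 without replicate 2 after CMG and -1.97 without replicate 1.

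Sqle, squalene epoxidase, had 1 to 12 counts a library and did not pass the filter on low counts in any comparison. Its level was 0.471 and 0.507 CPM before and 0.480 and 0.739 CPM after CMG in AngII, and 0.664 and 0.849 CPM before and 0.461 and 0.703 CPM after CMG in DOCA-HS. These groups overlapped in both models. With total counts or counts outside hemoglobin as the scale, both DOCA-HS libraries after CMG lay below both before it, and with counts outside hemoglobin both AngII libraries after CMG lay above both before it. The counting intervals of the 4 libraries of each model overlapped. Counts given below are of the 7 genes that passed the filter and leave Sqle out.

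Srebf2, the best measured gene of the set with 20 to 363 counts a library, was lower after CMG in both DOCA-HS libraries. Its levels there were 20.1 and 18.0 CPM before CMG and 15.2 and 14.1 CPM after it, with a log2 fold change of -0.37 (SE 0.43). The interval of replicate 2 after CMG, 8.59 to 21.7 CPM, held both values before CMG, and with libraries scaled to total counts the groups overlapped. In AngII they were 14.3 and 17.9 CPM before CMG and 12.8 and 20.2 CPM after it, with a log2 fold change of 0.07 (SE 0.33). Both values were smaller than their errors. In AngII the value was -0.30 without replicate 2 after CMG, -0.10 without replicate 1 before it and 0.51 with total counts.

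Insig1, the sterol-dependent brake on SREBP-2, was lower after CMG in both AngII libraries. Its levels there were 2.98 and 3.71 CPM before CMG and 1.76 and 2.36 CPM after it, with a log2 fold change of -0.63 (SE 0.37). When libraries were scaled to total counts or to counts outside hemoglobin, these groups overlapped. Over all alternatives this fold change ran from -0.88 to -0.21. In DOCA-HS its levels were 3.21 and 2.76 CPM before CMG and 2.84 and 2.81 CPM after it, with a log2 fold change of -0.08 (SE 0.47), which was 0.04 without replicate 1 before CMG.

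**Figure D3:**
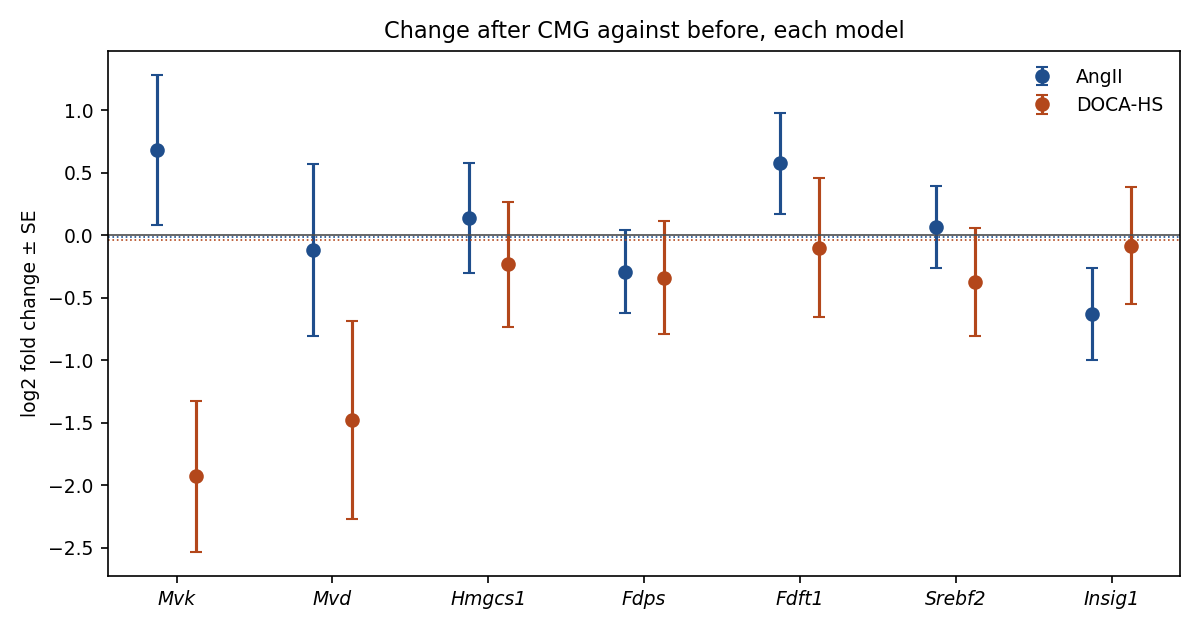
Log2 fold change after against before CMG (y axis, bars of 1 SE) of the 7 genes that passed the filter on low counts, in AngII and DOCA-HS; dotted lines are the medians of all genes tested in each model. In DOCA-HS the 7 points lie below 0, from -1.93 for Mvk to -0.08 for Insig1, and in AngII 4 lie above and 3 below 0.

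In DOCA-HS all 7 genes had a log2 fold change below 0, with a median of -0.34, where the median of all 7720 genes tested was -0.04 and 47.5% of them lay above 0. For 5 of the 7 the value was smaller than its SE. Both after libraries lay below both before libraries for 3 of the 7 (Mvk, Mvd and Srebf2), where 21.1% of all genes tested did so, and above for 0, where 14.7% did. In AngII 4 of 7 lay above 0, with a median of 0.07 against -0.01 over all 7201 genes tested. There 1 gene (Fdft1) was higher in both after libraries, against 21.3% of all genes, and 1 (Insig1) lower, against 18.6%. With libraries scaled by their counts outside hemoglobin, 4 of the 7 lay lower in both DOCA-HS after libraries, Fdps being added, where 27.9% of all genes tested did, and with total counts 3 did (Mvk, Mvd and Fdps), against 23.9%. With total counts the median of all genes was 0.36 in AngII and -0.76 in DOCA-HS, and the median of the 7 genes relative to it was 0.15 and -0.36, against 0.08 and -0.30 with TMM. In AngII 6 of the 7 genes were then above 0. Without DOCA-HS after CMG replicate 2 the median in DOCA-HS was -0.41, with 1 of the 8 genes then tested above 0. Without replicate 1 after CMG the median of the genes relative to all genes was 0.02, against -0.30 with all libraries, and without replicate 1 before CMG 2 of 7 lay above 0. Without replicate 2 after CMG, Hmgcs1 was at -0.24, Fdps at -0.50, Srebf2 at -0.32 and Insig1 at -0.07. In AngII the median was -0.34 without replicate 2 after CMG.

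The models were next compared at each time, in 1 edgeR fit of all 8 libraries with 4 group means, in which 7994 genes were tested. Each comparison shares the DOCA-HS libraries with the contrast by which Mvk was chosen, so the values of Mvk here are not independent of that choice. The model, its week and the handling of the blood cannot be told apart in these comparisons. Before CMG, the mean level of Mvk was 2.95 ± 0.49 CPM (SD, n = 2) in DOCA-HS and 1.17 ± 0.46 CPM in AngII. Its log2 difference was 1.24 (SE 0.54). The other differences of DOCA-HS against AngII before CMG were 0.69 (SE 0.67) for Mvd, 0.59 (SE 0.48) for Fdft1, 0.38 (SE 0.46) for Hmgcs1, 0.25 (SE 0.37) for Srebf2, -0.14 (SE 0.37) for Insig1 and -0.57 (SE 0.38) for Fdps.

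By edgeR's quasi-likelihood test 0 of 7 genes had a Benjamini-Hochberg adjusted p under 0.05 before CMG, where 0 of 7994 genes (0%) did. Of the 6 tested genes other than Mvk, 0 had an unadjusted p of at most 0.05, where 3.38% of all genes tested did. DESeq2 and limma-voom also gave 0 of 7 at an adjusted p under 0.05. The median of the 7 was 0.38, where that of all genes was 0.06 and 55.2% of them lay above 0. Both DOCA-HS libraries lay above both AngII libraries for 3 of the 7 (Mvk, Fdft1 and Srebf2), where 24.3% of all genes did so, and below for 0, where 21.2% did. With total counts or counts outside hemoglobin as the scale, 5 of the 7 lay above, Hmgcs1 and Insig1 being added, where 61.1% and 68.3% of all genes did. Without DOCA-HS before CMG replicate 1 the median of the 7 was 0.06.

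After CMG the order of Mvk was the other way, with a mean of 0.735 ± 0.046 CPM (SD, n = 2) in DOCA-HS and 1.85 ± 1.25 CPM in AngII. Its log2 difference was -1.37 (SE 0.67), and -0.34 without AngII after CMG replicate 2. The others were -0.65 (SE 0.84) for Mvd, -0.60 (SE 0.41) for Fdps, -0.17 (SE 0.38) for Srebf2, -0.06 (SE 0.50) for Fdft1, 0.02 (SE 0.51) for Hmgcs1 and 0.43 (SE 0.42) for Insig1. By edgeR's quasi-likelihood test 0 of 7 had a Benjamini-Hochberg adjusted p under 0.05, where 0% of the 7994 genes did, and 0 of 7 had an unadjusted p of at most 0.05, against 2.79%. DESeq2 and limma-voom gave 0 of 7 at an adjusted p under 0.05 as well. The median was -0.17 against -0.04 over all genes. Both DOCA-HS libraries lay below both AngII libraries for 3 of 7 (Mvk, Mvd and Fdps), against 15.9% of all genes, and above for 1 (Insig1), against 10.8%. With total counts or counts outside hemoglobin as the scale, 1 lay below (Fdps), where 7.71% and 6.23% of all genes did, and 0 above, where 2.49% and 9.22% did. Leaving out AngII after CMG replicate 2 turned the median to 0.12. Without DOCA-HS after CMG replicate 2 the median was -0.27, Mvk was at -1.37, Mvd at -0.41 and Fdft1 at 0.23.

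**Figure D4:**
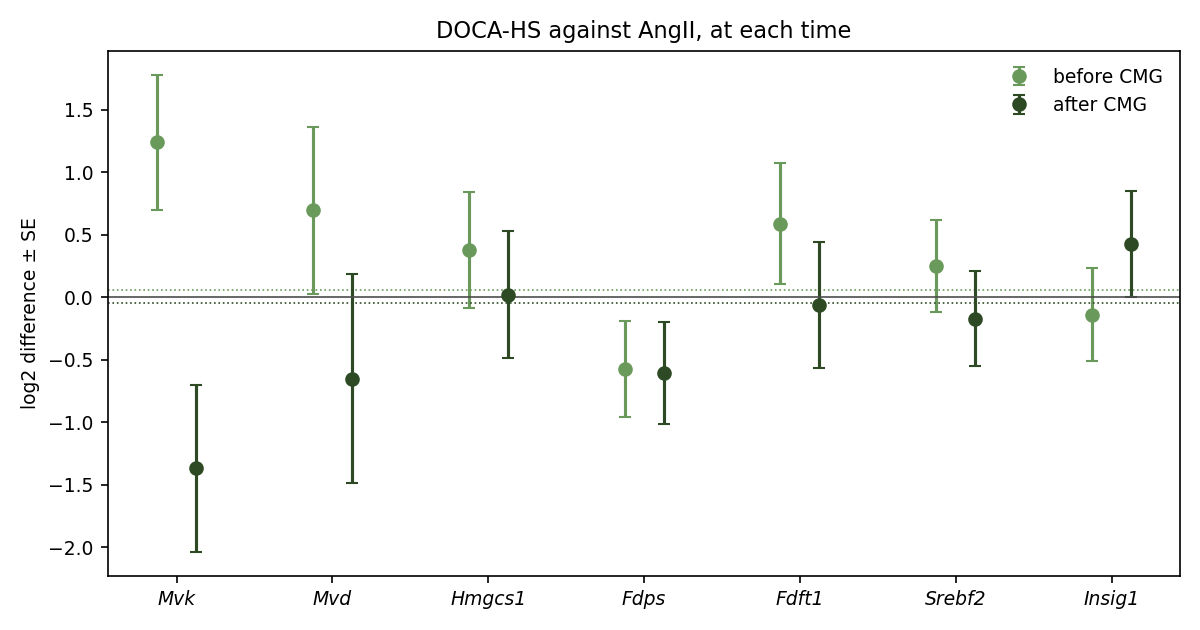
Log2 difference of DOCA-HS against AngII (y axis, bars of 1 SE) before and after CMG for the 7 genes that passed the filter on low counts; dotted lines are the medians of all genes tested. Mvk lies at 1.24 before and -1.37 after CMG, and Fdps lies below 0 at both times, at -0.57 and -0.60.

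Fdps had differences of -0.57 and -0.60 at the 2 times. Without single libraries it ran from -0.90 to -0.18 before CMG and from -0.77 to -0.40 after it. Its direction depended on the scaling before CMG, where total counts gave 0.22 and counts outside hemoglobin 0.14.

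The other genes of the pathway were taken from lists of gene symbols. By edgeR with Benjamini-Hochberg adjustment, 0 genes of these lists had an adjusted p under 0.05 in any of the 4 comparisons, and 0 did with DESeq2 or limma-voom. At an unadjusted p of at most 0.05 there were 2 of 37 tested in AngII, against 6.65% of all genes tested, and 2 of 43 in DOCA-HS, against 3.17%, after against before CMG. Between the models there were 1 of 45 before CMG, against 3.38%, and 0 of 45 after it, against 2.79%. Of 14 other enzymes of cholesterol synthesis, 5 were tested after against before CMG in AngII, with 4 above 0 and a median log2 fold change of 0.47, which ran from 0.24 to 0.96 without single libraries. In DOCA-HS 9 were tested, with 4 above and 5 below 0 and a median of -0.11, which was 0.02 with DESeq2, -0.77 with total counts and -0.24 without replicate 2 after CMG. Between the models before CMG, 10 of 10 tested enzymes were higher in DOCA-HS than in AngII in their fitted values, with a median log2 difference of 0.35. Of all 7994 genes tested, 55.2% lay above 0, with a median of 0.06. By edgeR 0 of the 10 enzymes had an unadjusted p of at most 0.05. The count above 0 was 8 of 11 without AngII before CMG replicate 1, 7 of 11 without replicate 2 and 11 of 14 with no filter on low counts. After CMG 3 of 10 were above 0, against 46.5% of all genes, with a median of -0.16 against -0.04. Without AngII after CMG replicate 2 the median of the enzymes was 0.23, with 7 of 11 above 0.

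Idi1, the isomerase between Mvd and Fdps, had 6 to 23 counts a library and a log2 fold change of 0.54 (SE 0.92) in DOCA-HS, which was -0.38 without replicate 2 after CMG, and was not tested in AngII. Insig2, the second Insig gene, had 3 to 8 counts a library and was not tested.

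The 9 tested genes of cholesterol uptake and transport had a median log2 fold change of 0.65 in AngII, with 5 above 0, and of 0.23 in DOCA-HS, with 6 above 0. The value in AngII was 1.07 with counts outside hemoglobin and 0.40 without replicate 2 after CMG. The value in DOCA-HS was -0.48 with total counts and -0.15 without replicate 1 after CMG. Monocyte markers also lay higher after CMG in AngII, with 5 of 6 above 0 and a median of 0.57, as did NK cell markers, with 4 of 4 tested above 0 and a median of 0.95, and their part in the uptake genes was not tested. Lipa, the lysosomal lipase that frees cholesterol from its esters, had 6.36 and 5.23 CPM before CMG and 10.4 and 14.2 CPM after it in AngII. In DOCA-HS it had 11.6 and 7.32 CPM before CMG and 14.4 and 15.5 CPM after it. Both after libraries thus lay above both before libraries in each model, as for 21.3% of all genes tested in AngII and 14.7% in DOCA-HS. The change of Lipa in DOCA-HS minus that in AngII was -0.44 (SE 0.54) on the log2 scale.

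Srebf1, the SREBP gene tied mainly to fatty acid synthesis, had 3.06 and 3.38 CPM before CMG and 5.28 and 6.50 CPM after it in AngII. Its log2 fold change was 0.91 (SE 0.31), with an adjusted p of 0.628 in edgeR with Benjamini-Hochberg adjustment. In DOCA-HS it was -0.44 (SE 0.63), from 6.14 and 3.18 CPM before CMG and 4.61 and 0.703 CPM after it, the last from 1 count. Without that library it was -0.05, and without replicate 1 after CMG it was -2.75. The 6 tested genes of sterol sensing had medians of 0.06 in AngII and -0.19 in DOCA-HS, the 5 of efflux and storage 0.39 and 0.33, and the 6 of fatty acid synthesis 0.08 and -0.13. The genes of the isoprenoid branches had medians of 0.10 over 6 tested in AngII and -0.20 over 8 in DOCA-HS. Several of these medians changed sign or size without single libraries. Without AngII after CMG replicate 2, sterol sensing was at -0.21, fatty acid synthesis at -0.02 and the isoprenoid branches at -0.09 in AngII, and without replicate 1 before CMG sterol sensing was at -0.15 and efflux and storage at 0.94. Without DOCA-HS after CMG replicate 2, sterol sensing was at 0.20, fatty acid synthesis at 0.05 and efflux and storage at 0.68 in DOCA-HS. Without replicate 1 after CMG, sterol sensing was at -1.09, efflux and storage at -0.70 and the isoprenoid branches at -0.53, and without replicate 1 before CMG fatty acid synthesis was at 0.18. Efflux and storage in DOCA-HS was at -0.20 with total counts. In the main edgeR fits 1 pathway gene beyond the set met the study's criterion in a comparison, Coq2, an enzyme of ubiquinone synthesis. Over 8 other ways of processing that kept all libraries, 0 to 5 such genes met it. Upward between the models before CMG, 0.425% of all genes tested met it in the main fit. The level of Coq2 before CMG was 1.83 and 1.59 CPM in DOCA-HS and 0.471 and 0.507 CPM in AngII, from 6 and 3 counts. Its log2 difference was 1.80 (SE 0.61), with an adjusted p of 0.992 in edgeR. Without replicate 1 of either group it did not meet the criterion.

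The genes were also set against each other over the libraries. For the 7 genes with a mean of at least 10 counts, Pearson's r of log2 CPM between pairs ran from -0.18 (Hmgcs1 and Fdps) to 0.79 (Mvd and Fdft1), with a median of 0.32 and 17 of 21 pairs above 0. These are descriptions over 8 libraries that share depth and scaling. The median r of all 7396 genes compared was 0.25 with the members' mean and 0.19 with Mvk, and 0.77 and 0.65 with counts outside hemoglobin as the scale. The genes most like the mean of the 7 were Acsl3 (r = 0.99), Il21r (0.98), Gsta6 (0.98), Ccar2 (0.98) and Prpf6 (0.97), and those most like Mvk were Ccdc82 (0.94), Nob1 (0.92), Ints13 (0.92), Ddx54 (0.91) and Clcn4 (0.91), among 7396 genes. Acsl3 had 0 counts and Ccdc82 had 3 counts in DOCA-HS after CMG replicate 2, and the 3 highest libraries of both were the DOCA-HS libraries before CMG and AngII after CMG replicate 2.

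Blood cell markers differed between the same groups. In bulk blood, fewer cells of a type and less RNA per cell cannot be told apart. The 5 B cell markers summed to 108.6 and 80.8 CPM in DOCA-HS before CMG and to 67.6 and 33.7 CPM after it, and in AngII to 48.7 and 68.4 CPM before CMG and 54.8 and 92.8 CPM after it. In DOCA-HS both after libraries lay below both before libraries, as for Mvk, while the 2 before libraries stood in the opposite order to Mvk. In AngII the highest library was replicate 2 after CMG, as for Mvk, and the second highest, replicate 2 before CMG, was the lowest for Mvk. The 7 T cell markers summed to 183.6 and 194.4 CPM in DOCA-HS before CMG and 125.9 and 151.8 CPM after it. In AngII they summed to 177.1 and 205.0 CPM before and 110.1 and 151.9 CPM after it. The markers did not move as 1 in DOCA-HS after CMG replicate 2. There Cd3d, Cd3g and Cd247 lay above both libraries before CMG, at 20.4, 28.1 and 40.8 CPM. Cd3e, Lck and Cd5 lay below both. The 6 monocyte markers summed to 414.0 and 409.9 CPM before CMG and 512.5 and 515.8 CPM after it in AngII, and overlapped in DOCA-HS, at 439.2 and 693.5 CPM before and 633.6 and 397.2 CPM after it. The 5 NK cell markers summed to 28.1 and 30.2 CPM before CMG and 58.3 and 50.02 CPM after it in AngII. In DOCA-HS they summed to 18.8 and 33.6 CPM before and 35.4 and 51.3 CPM after it. These sums, of which Prf1 was the largest part, lay higher after CMG in both models. Not every marker did so. Klrd1 overlapped in both models, at 5.18 and 7.26 CPM before and 5.12 and 7.61 CPM after CMG in AngII, and Ncr1 overlapped in DOCA-HS. The 4 platelet markers summed to 158.3 and 216.5 CPM before CMG and 456.7 and 743.7 CPM after it in DOCA-HS, with 3 of 3 tested above 0 and a median log2 fold change of 1.26. They overlapped in AngII, at 483.3 and 148.7 CPM before and 434.3 and 48.3 CPM after it. Pf4 held most of each sum, and Gp1bb had 0 counts throughout. Pf4 and Gp9 were higher in both DOCA-HS libraries after CMG. Ppbp overlapped, at 4.09 and 6.16 CPM before CMG and 11.8 and 3.51 CPM after it. The 7 erythroid markers had 7 of 7 fold changes above 0 in DOCA-HS, with a median of 0.55, and 7 of 7 below 0 in AngII, with a median of -0.49. Their sums overlapped in DOCA-HS, and in AngII both libraries after CMG, at 20852 and 13251 CPM, lay below both before it, at 20989 and 27205 CPM. The nearest of these sums were close, and Alas2, the largest part of the sum, overlapped in AngII. Slc4a1 and Epb42 were lower in both AngII libraries after CMG. Ahsp and Hemgn in replicate 1 after CMG lay above both libraries before it. In AngII the sum of the 8 neutrophil markers was lower in both libraries after CMG. It was 232.3 and 205.1 CPM there, against 246.2 and 234.9 CPM before CMG. Of these markers 6 had a fold change below 0 in AngII and 2 above, Csf3r and Cxcr2, which were higher in both libraries after CMG. In DOCA-HS the sums overlapped, at 126.1 and 418.5 CPM before CMG and 194.4 and 483.6 CPM after it. The 8 hepatocyte markers were near 0 in the blood, with 0 to 2 counts in all before CMG, 6 and 12 after it in AngII and 29 and 14 after it in DOCA-HS. Albumin was at 0 in every library before CMG and had 1 to 11 counts in those after it.

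**Figure D5:**
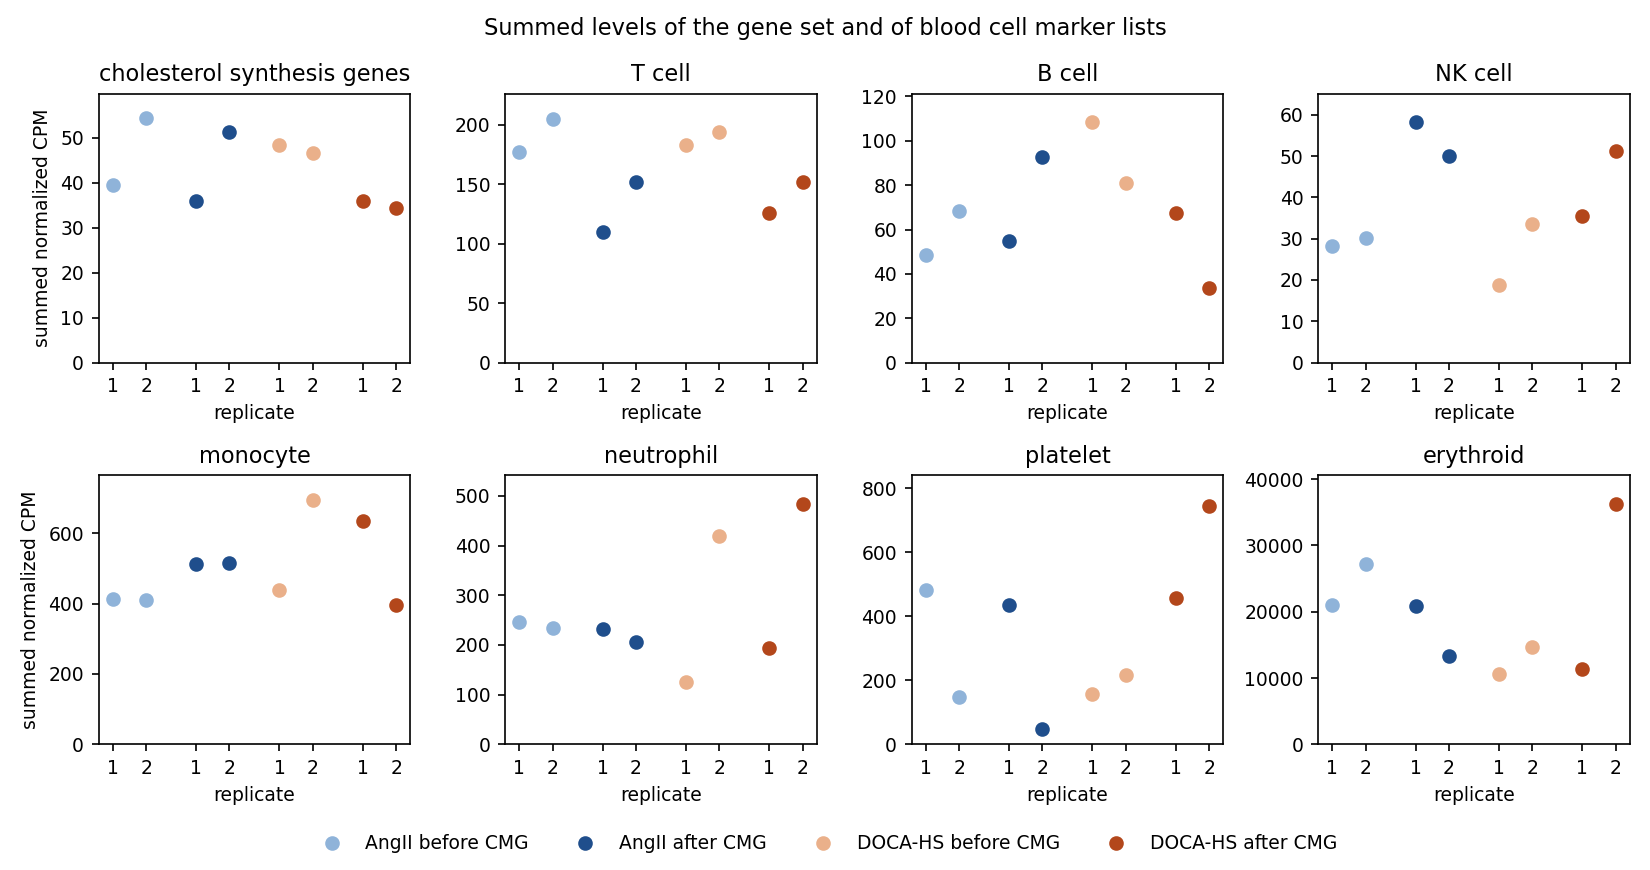
Summed normalized CPM (y axis, from 0, with its own scale for each panel) of the 8 cholesterol genes and of 7 lists of blood cell markers in each library (x axis, replicate within the 4 groups). The T cell and B cell sums were lower in both DOCA-HS libraries after CMG than in both before, as was the sum of the 8 genes. In AngII the T cell sum was also lower in both libraries after CMG, where the sum of the 8 genes overlapped. The platelet and erythroid sums were highest in DOCA-HS after CMG replicate 2.

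The 8 genes together summed to 48.2 and 46.6 CPM in DOCA-HS before CMG and 35.9 and 34.4 CPM after it, and to 39.4 and 54.4 CPM before and 35.8 and 51.2 CPM after CMG in AngII. Of the 8 neutrophil markers, 3 had a fold change above and 5 below 0 in DOCA-HS. Ngp and Lcn2, the neutrophil granule genes that met the criterion there, rested on 6 and 5 and on 0 and 1 counts after CMG, and had log2 fold changes of -3.27 and -4.02 in DOCA-HS and differences of -2.54 and -3.62 between the models after CMG, and Pf4, a platelet gene, had 1.72 in DOCA-HS. The part of the cell makeup of the blood in the values of Mvk and the other genes was not tested.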

How the data were processed

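RNA of whole blood was sequenced in 8 rat libraries, 2 in each of 4 groups. The authors aligned reads to rn6 with HISAT2 and counted them on genes by strand with HTSeq, and the deposited values are these counts, without normalization. They state that hemoglobin annotations were removed, whereas Hbb and LOC100134871 lead the deposited counts and were taken here as hemoglobin. The file had 17446 genes and 0 further columns of samples. Sequences come from RefSeq (GRCr8), so no coordinates are given.

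After was compared with before CMG in the 4 libraries of each model, and the models were compared in 1 fit of 8 libraries, with edgeR 4.0.16 in R 4.3.3 (filterByExpr, TMM, glmQLFit, glmQLFTest) and Benjamini-Hochberg adjustment over all genes tested. The SE of a fold change is its size divided by the square root of F. The study's criterion was a log2 fold change beyond 1.5 with an unadjusted p of at most 0.05. CPM used the library total and the TMM factor of the 8-library fit, and log2 CPM a prior count of 2. The computation was tested on simulated counts. Replicate libraries were not copies of each other, since a chi-square test of their counts gave 15.4 to 94.6 per degree of freedom. The alternatives were DESeq2 1.42.0, limma-voom (limma 3.58.1), other scalings and filters, other thresholds, a replicate block, 1 mismatch in the promoter letters and each library left out.

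The members and lists were chosen with earlier results of these data known. The genes named were the 8 members, Idi1, Srebf1, Insig2 and Mmab, list genes that met a call rule, and the 5 genes most like the members' mean and Mvk by Pearson's r. Some genes named by the rule are not reported here and were left out of the lists. Lipa and Me1 were singled out after their values were seen. Promoters were to be printed for members with an exact sterol element, and as there was none, those with 1 mismatch and Mvk were printed.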

Additional observations from a re-analysis of the deposited data

How the results depend on the processing

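The limits are those of depth and of 2 libraries a group. DOCA-HS after CMG replicate 2 had 49 counts on the 8 genes, and a lone library in a group was assumed to vary like the others. The number of genes of the set with an adjusted p under 0.05 between the models was 0 under all 17 alternatives at each time. Mvk in DOCA-HS, the contrast by which it was chosen, ran from -2.58 to -1.75 over 12 fits and was not tested when 10 counts were asked of every library, and nothing is read from this range. In a comparison that shares those libraries, Mvk met the criterion between the models before CMG with counts outside hemoglobin (1.95). With that scale 279 of the 7994 genes tested met it upward, against 34 in the main fit, and the median of all genes was 0.78. After CMG the difference of Mvk was -1.84 without AngII after CMG replicate 1.

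The median of the genes in AngII was 0.51 with total counts and 0.52 with counts outside hemoglobin, and without single libraries it ran from -0.34 to 0.41. In DOCA-HS it was -1.12 with total counts. For DOCA-HS against AngII before CMG it was 1.24 with total counts, 1.11 with counts outside hemoglobin, 0.49 with no filter and 0.10 where each library needed 10 counts, and without single libraries it ran from 0.060 to 0.53. After CMG it ran from -0.65 to 0.12. The scalings moved the median of all genes as well, and for the other settings the cause was not tested.

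Some differences changed sign. Before CMG, Fdps was 0.22 with total counts and 0.14 with counts outside hemoglobin, and Insig1 0.68 and 0.58. Without single libraries Hmgcs1 ran from -0.084 to 0.64, Insig1 from -0.31 to 0.0014 and Mvd from -0.027 to 1.52. After CMG, Hmgcs1 was -0.35 with total counts and -0.096 with counts outside hemoglobin, and without single libraries it ran from -0.43 to 0.87, Fdft1 from -1.96 to 0.33 and Srebf2 from -0.46 to 0.19. In DOCA-HS after against before CMG, total counts gave -0.31 for Idi1. Without single libraries Idi1 ran from -0.38 to 2.05.

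With the replicate number as a block, the median before CMG was 0.27 and Hmgcs1 after CMG was -0.025. With that replicate block 2 genes of the pathway lists had an adjusted p under 0.05 in edgeR, against 0 in the main fits. They were Lipa in AngII and Me1, malic enzyme, between the models after CMG. Some edgeR fits without single libraries also gave such genes, but these fits leave a lone library in a group and are not counted here. Deviations of libraries with the same number correlated across 7403 genes at 0.45 in AngII and 0.32 in DOCA-HS, but with 2 pairs a model, and no source saying that a number marks a rat, the libraries share only a number.

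With scaling by counts outside hemoglobin, 3 of the 5 genes most like the members' mean and 1 of the 5 most like Mvk were the same.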
